A study of Mus musculus with 6 samples.

Results

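The TNF superfamily was examined in cultured bone marrow (BM) cells of mice that had received fecal microbiota transplantation (FMT). Its members were chosen by gene symbol alone: every row of the count table whose symbol starts with *Tnfsf* or *Tnfrsf* and a number, together with *Tnf*, *Lta*, *Ltb*, *Ltbr*, *Fas*, *Fasl*, *Cd40*, *Cd40lg*, *Cd27*, *Cd70*, *Eda*, *Edar* and *Ngfr*. This gave 45 of the 56980 rows, namely 18 ligand genes, 26 receptor genes and 1 antisense RNA, *Tnfsf13os*. RNA-Seq covered 3 TranspCtrl and 3 TranspExer samples, all labelled MSCs (mesenchymal stromal cells, the plastic-adherent marrow cells that can form bone and fat). Both groups were female mice ovariectomised (OVX) at 8 weeks of age, whose own gut microbiota was depleted with antibiotics before 8 weeks of daily FMT by gavage. The donors were sedentary OVX mice for TranspCtrl and treadmill-exercised OVX mice for TranspExer, so the donors' exercise was what the labels set apart. Flushed marrow of femurs and tibias was cultured for 7 days with washes, and no sorting step was described. The strain, and whether a sample was 1 mouse or a pool, are not given in the sources used here. The p-values therefore measure the spread between these samples, which may be technical.

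Most ligands of this superfamily are trimeric membrane proteins that can be shed, and their receptors signal through TRAF adaptors to NF-κB and MAP kinases or, where they carry a death domain, to caspases. In bone, RANKL (*Tnfsf11*) made by stromal and osteoblast-lineage cells binds RANK (*Tnfrsf11a*) on osteoclast precursors and drives their fusion and bone resorption, and the soluble decoy receptor OPG (*Tnfrsf11b*) captures RANKL. In the marrow, BAFF and APRIL maintain B cells and plasma cells, and TNF itself is an inflammatory cytokine that raises bone resorption after loss of estrogen.

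The 6 libraries held 17647638 to 21319166 counts each, and 3 counts corresponded to 0.14 to 0.174 CPM (counts divided by library size and by a TMM factor, the trimmed mean of M-values, which evens out differences in composition between libraries). TranspCtrl replicate 1 stood apart from the other TranspCtrl samples: its counts differed from theirs by a mean chi-square of 54.0 to 59.2 per gene, against 3.79 for the other pair of TranspCtrl samples and 4.43 to 7.82 for pairs of TranspExer samples. Log2 fold changes of tested members that moved by over 1.5 times or changed their call without this sample are given with and without it. For genes outside the superfamily this was done in part. The cultures were not purely stromal. *Ptprc*, which marks leukocytes, was at 270.4 to 302.9 CPM over the 6 samples, and summed macrophage and monocyte markers were at 8218 to 12470 CPM in TranspCtrl and 6425 to 6878 CPM in TranspExer, beside summed stromal markers at 12170 to 19880 and 13100 to 14330 CPM. Summed osteoblast markers were at 171.2 to 227.4 CPM in TranspCtrl and 110 to 114.5 CPM in TranspExer, with 3 of the 4 tested markers lower, *Sp7* and *Ibsp* by at least 2-fold, while *Bglap*, the marker of mature osteoblasts, was near 0 (mean 0.0155 and 0.0174 CPM). In such bulk samples, fewer cells of a type and less RNA per cell cannot be told apart.

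Of the 45 members, 39 passed the filter on low counts and 6 did not. Of the members called higher in the TranspExer group 7 were receptors, among them RANK and the receptors of TNF, whereas the members at least 2-fold lower included receptors and ligands of lymphocytes. At an adjusted p under 0.05 (edgeR quasi-likelihood test, Benjamini-Hochberg over 15190 genes), 9 of the 39 members were higher (23.1%, beside 16.6% of all tested genes) and 11 were lower (28.2%, beside 15.5%). With a fold change of at least 2 added, 0 were higher (beside 3.5% of all tested genes) and 8 were lower (20.5%, beside 5.28%). The 0 was also the count at an unadjusted p under 0.05 and by DESeq2, and it became 1 without TranspCtrl replicate 2 (*Tnfrsf11a*) and 2 without TranspCtrl replicate 3 (*Tnfrsf11a* and *Tnfrsf21*). There was no overlap between the groups for 11 members that were higher (28.2%, beside 27.2%) and 14 that were lower (35.9%, beside 25.1%). The shares of higher members at the adjusted p and of non-overlapping higher members were close to the background, and the share of members at least 2-fold lower was above it. Whether these shares differ was not tested.

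**Figure D1:**
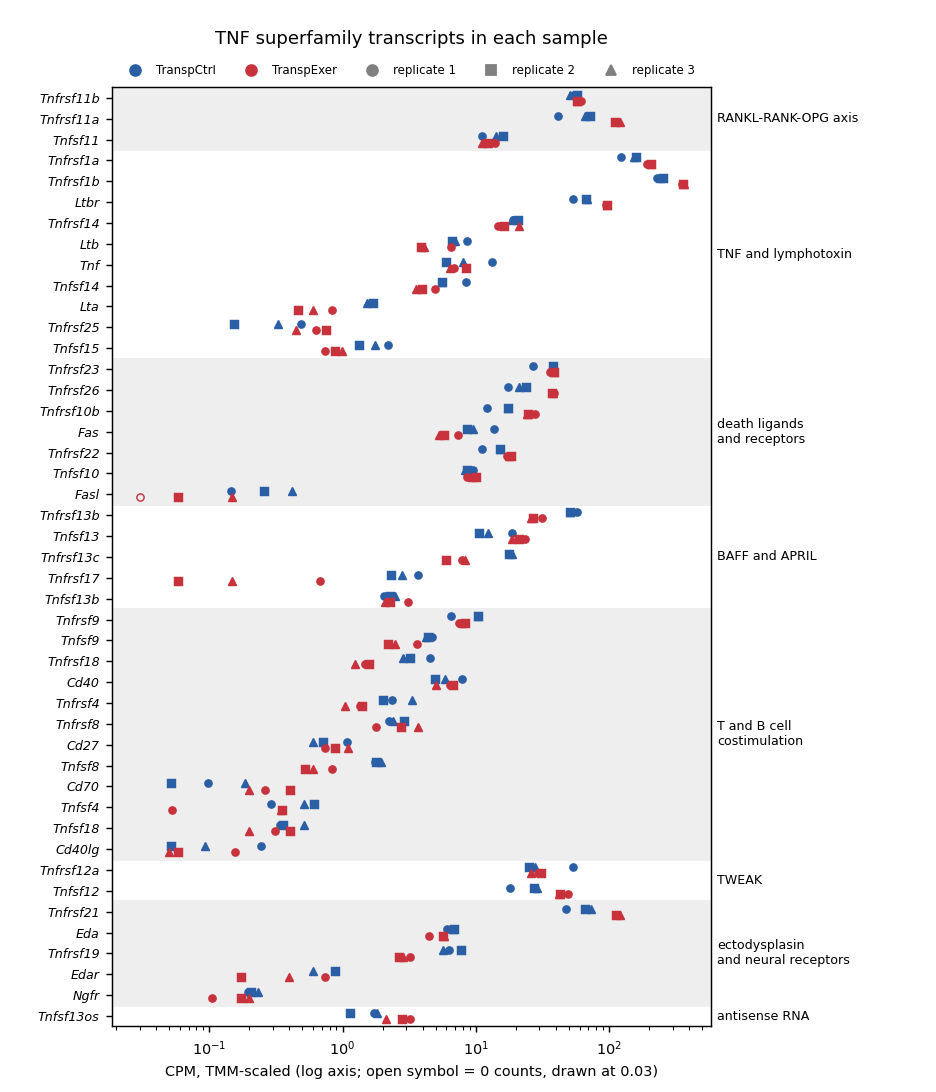
CPM (log axis) of each member in each sample, by role group; blue symbols are TranspCtrl, red symbols TranspExer, and symbol shapes mark the replicate numbers. Tnfrsf1b (229.6 to 365.4 CPM) and Tnfrsf1a (123.7 to 206.7 CPM) are the members with the most counts, and Tnfrsf17 shows a wide gap between the groups.

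Calls were counted for ligands and receptors separately, and the difference between the classes was not tested. Of 13 tested ligand genes, 1 was higher (*Tnfsf12*; 7.69%, beside 16.6% of all tested genes) and 4 were lower (30.8%, beside 15.5%), with a median log2 fold change of −0.35. Of 25 tested receptor genes, 7 were higher and 7 lower (28.0% each), with a median of 0.12. The median over all tested members was −0.14, beside −0.02 over all tested genes, and without TranspCtrl replicate 1 it was 0.03, beside −0.001. Ligands and receptors together were also divided by level. Among the 19 coding members above the median level of 4.49 RPKM (CPM per kilobase of gene length, computed here), 8 were higher (42.1%) and 3 lower (15.8%), with a median log2 fold change of 0.15, and among the 19 at or below it 0 were higher and 8 lower (42.1%), with a median of −0.65. All tested genes divided at the same level leaned the same way, with 20.2% higher and 13.8% lower above it (median 0.05) and 11.1% higher and 18.2% lower at or below it (median −0.17). The 7 receptors that were higher all lay above the median level, whereas the receptors that were lower lay on both sides of it, 3 above and 4 at or below. The antisense RNA *Tnfsf13os*, under the median level at 2.61 RPKM and called higher, was left out of the divided members. All tested genes, in contrast, were not limited to coding genes. This division by level was chosen after the values were seen. The 0 was also the count by DESeq2, and at an unadjusted p under 0.05 from edgeR 1 member of this group, *Tnfrsf22*, was higher. Without TranspCtrl replicate 1, it held 0 higher and 8 lower members.

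**Figure D2:**
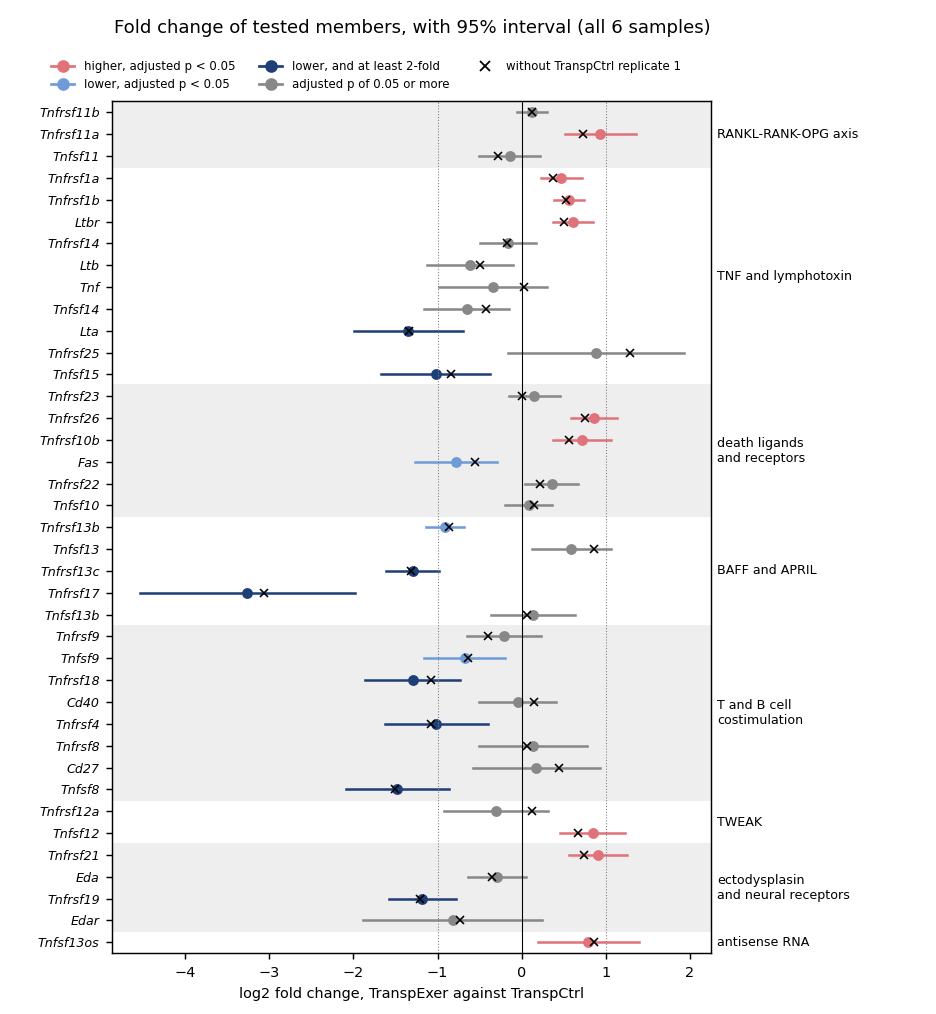
Log2 fold change of TranspExer against TranspCtrl for the 39 tested members by role group (dots, all 6 samples; bars, 95% interval; colours, call), with crosses for the value without TranspCtrl replicate 1. Red dots, all higher, lie between 0.47 and 0.94, and the dark blue dots, at least 2-fold lower, lie between −3.26 and −1.01.

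RANK was the member of the RANKL-RANK-OPG axis that changed, and RANKL and OPG did not pass the test. *Tnfrsf11a* (chromosome 1, 105780718 to 105847981, plus strand, GRCm38) was at 41.1, 71.4 and 66.1 CPM in TranspCtrl replicates 1, 2 and 3 and at 110.5, 110.9 and 120.2 CPM in TranspExer replicates 1, 2 and 3. All TranspExer samples lay above all TranspCtrl samples, and TranspCtrl replicate 1 was the lowest of the 6. *Tnfrsf11a* rose from 59.5 ± 16.2 to 113.9 ± 5.47 CPM (SD, n = 3 each), a change of 0.94 ± 0.18 (log2 scale, standard error or SE, adjusted p = 0.0074), and of 0.73 without TranspCtrl replicate 1 (adjusted p = 1.32e-06). *Tnfsf11* (chromosome 14, 78277445 to 78308043, minus strand) was at 11.04, 15.9 and 14.3 CPM in TranspCtrl and at 13.97, 12.3 and 11.03 CPM in TranspExer. The groups overlapped, and the log2 fold change was −0.14 with a 95% interval from −0.51 to 0.22 (adjusted p = 0.51). It was −0.28 without TranspCtrl replicate 1 (adjusted p = 0.072) and −0.03 without TranspCtrl replicate 2 (adjusted p = 0.91), and it did not pass the test whichever sample was left out. *Tnfrsf11b* (chromosome 15, 54250619 to 54278484, minus strand) was at 54.0, 57.2 and 51.0 CPM in TranspCtrl and at 61.8, 57.8 and 57.1 CPM in TranspExer, with a log2 fold change of 0.12 and an interval from −0.06 to 0.30 (adjusted p = 0.25). Its highest TranspCtrl sample lay just above its lowest TranspExer sample. The osteoblast marker sum given above was lower in all TranspExer samples, and its part in the values of RANKL and OPG was not tested.

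The promoters of the receptor that rose and of the ligand that did not pass the test are shown as the 150 bases before the start site, from the RefSeq table of promoters (GRCm38.p6), which held promoters for 34 of the member genes.
Tnfrsf11a, chr1:105780573-105780722, plus strand: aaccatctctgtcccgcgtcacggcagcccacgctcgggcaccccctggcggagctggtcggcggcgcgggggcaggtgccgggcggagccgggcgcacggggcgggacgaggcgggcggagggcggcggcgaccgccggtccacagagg
Tnfsf11, chr14:78308044-78308193, minus strand: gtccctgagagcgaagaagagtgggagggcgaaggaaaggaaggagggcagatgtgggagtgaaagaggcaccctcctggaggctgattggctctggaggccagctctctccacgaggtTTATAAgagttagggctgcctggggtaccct
Capitals mark matches to the searched motifs on either strand, here TATAA for *Tnfsf11*, whose pair of matches on opposite strands overlap. In the whole window of 300 bases around the start site, the *Tnfrsf11a* promoter was 76.7% G and C with 43 CpG dinucleotides, and the *Tnfsf11* promoter was 61.7% G and C with 7. The searched motifs were GAGGAAGT (PU.1), TGANTCA (AP-1), TATAA (TATA box) and the NF-κB consensus. They occurred in 3.2%, 7.81%, 24.9% and 5.89% of the 32851 promoters in the table and in 1, 7, 9 and 3 of the 38 promoters of members, and none matched in the *Tnfrsf11a* window.

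The ratio of RANKL to OPG counts does not depend on library scaling. On the log2 scale it was −2.29, −1.85 and −1.83 in TranspCtrl and −2.14, −2.23 and −2.37 in TranspExer. TranspCtrl replicate 1 lay within the range of the TranspExer samples, and the other TranspCtrl samples lay above them. The mean difference was −0.26, and an exact two-sided permutation test over the 6 samples gave p = 0.3, where the smallest p that 3 against 3 samples allow is 0.1. The difference was −0.41 without TranspCtrl replicate 1 and −0.18 without TranspCtrl replicate 3, the widest and the narrowest of the values with a sample left out. The log2 ratio of *Tnfrsf11a* to *Csf1r*, the M-CSF receptor carried by macrophages and osteoclast precursors, was −4.38 to −3.69 in TranspCtrl and −3.076 to −2.998 in TranspExer, a difference of 0.90 without overlap between the groups. Relative to the 9 markers of the macrophage and monocyte list, each taken in turn after their values were seen, the difference ranged from 0.19 (*Cd68*) to 2.06 (*Lyz2*). The ratio did not overlap between the groups for 6 of these markers and overlapped for *Cd68*, *Mertk* and *Ly6c2*, the 3 that were themselves higher in TranspExer.

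**Figure D3:**
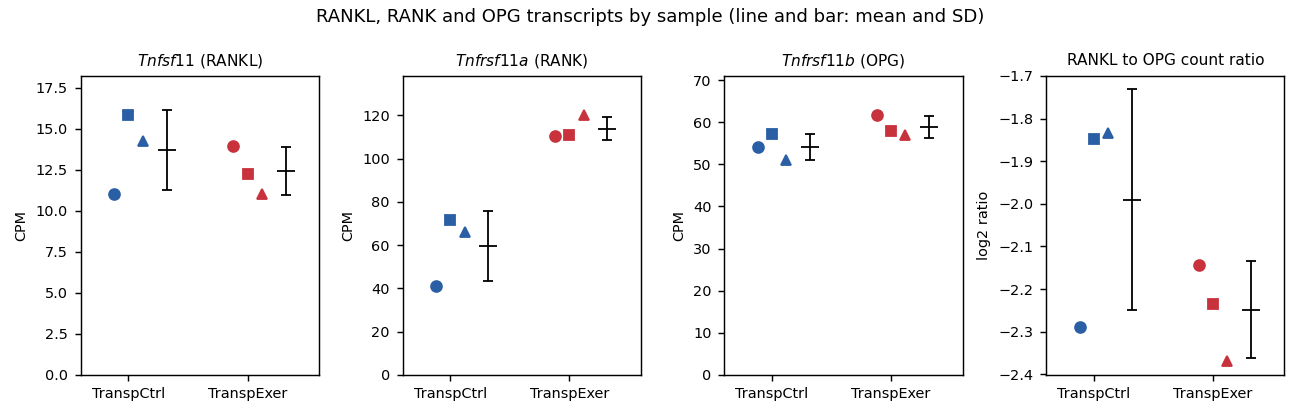
CPM of RANKL, RANK and OPG and the log2 ratio of RANKL to OPG counts in each sample, with the group mean and SD beside the points. RANK is at 110.5 to 120.2 CPM in the TranspExer samples against 41.1 to 71.4 CPM in the TranspCtrl samples, while the points of the other panels overlap between the groups.

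Osteoclast genes that act with or after RANK split into those that rose and those that fell. Of 18 tested genes of a hand-written list, 7 were higher and 7 lower (38.9% each, beside 16.6% and 15.5% of all tested genes), 2 and 6 of them at least 2-fold (11.1% and 33.3%, beside 3.5% and 5.28%), with a median log2 fold change of 0.16. *Itgb3*, an integrin of the osteoclast's adhesion ring, and *Atp6v0d2*, a proton pump subunit, showed 1.09 and 1.02 (log2 fold change, adjusted p = 0.000344 and 0.000136). The proteases *Ctsk* (cathepsin K) and *Mmp9* had −2.51 and −2.42 (adjusted p = 4.96e-05 and 6.5e-05), and the fusion receptor *Dcstamp* and the phosphatase *Acp5* had −2.26 and −1.29 (adjusted p = 0.000218 and 0.000283). *Nfatc1*, the transcription factor induced by RANK, had 0.12 (adjusted p = 0.67) and −0.10 without TranspCtrl replicate 1 (adjusted p = 0.25). Without TranspCtrl replicate 1, 8 were higher and 8 lower, beside 3382 and 3023 of all 15190 tested genes. *Ctsk*, *Mmp9* and *Acp5* are also expressed in macrophages or stromal cells, and the macrophage sum given above was lower in all TranspExer samples. *Lyz2* was the largest part of this sum in every sample, so the direction of the sum need not be that of the other markers. Of the 9 markers in the sum, 3 were higher (*Cd68*, *Mertk* and *Ly6c2*) and 2 lower (*Lyz2* and *Mrc1*), with a median log2 fold change of 0.07, and *Csf1r* did not pass the test. The part of the cell makeup in these values was not tested.

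**Figure D4:**
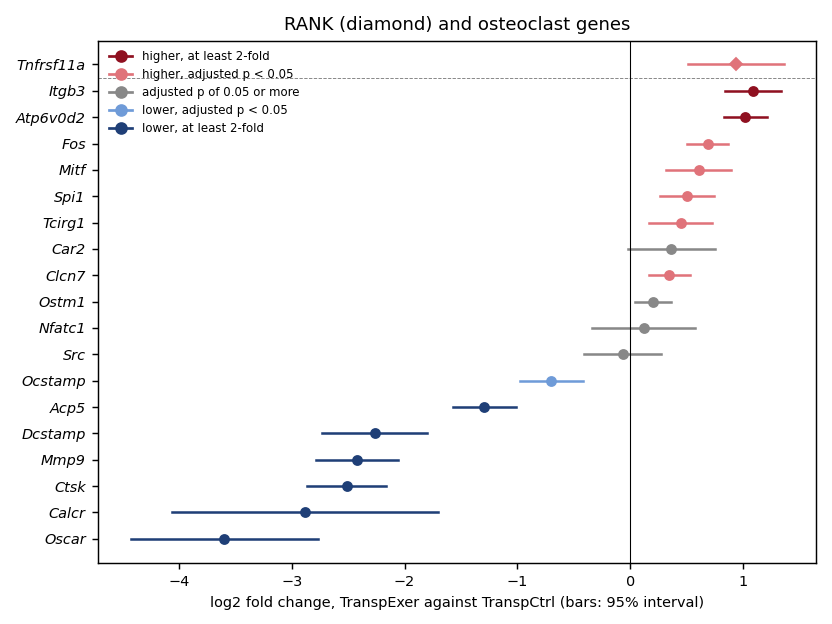
Log2 fold change of TranspExer against TranspCtrl for RANK (diamond) and the 18 tested osteoclast genes, ordered by value (bars, 95% interval; colours, call). RANK at 0.94 lies beside Itgb3 and Atp6v0d2, while Ctsk, Mmp9, Dcstamp, Acp5, Calcr and Oscar lie between −3.60 and −1.29.

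All 3 receptors of BAFF and APRIL fell, and neither ligand passed the test. *Tnfrsf13b* encodes TACI, *Tnfrsf13c* the BAFF receptor of B cells, and *Tnfrsf17* BCMA, a receptor of plasma cells. *Tnfrsf17* was counted 76, 45 and 60 times in TranspCtrl but 13, 1 and 3 times in TranspExer, which gave 2.31 to 3.71 CPM against 0.0581 to 0.68 CPM. Its log2 fold change was −3.26 ± 0.56 (SE, adjusted p = 0.00394), and −4.71 without TranspExer replicate 1, the sample with 13 counts. *Tnfrsf13c* was at 17.6, 17.9 and 18.8 CPM in TranspCtrl and at 7.85, 5.93 and 8.25 CPM in TranspExer, a change of −1.30 ± 0.14 (log2 scale, SE, adjusted p = 0.000448). *Tnfrsf13b* was at 57.0, 50.9 and 51.0 CPM in TranspCtrl and at 31.4, 27.0 and 26.1 CPM in TranspExer, a change of −0.91 ± 0.10 (log2 scale, SE, adjusted p = 0.000474). For none of the 3 receptors did the groups overlap.

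The promoters of these receptors, shown because the 3 genes fell together, lie on different chromosomes (150 bases before the start site, GRCm38.p6).
Tnfrsf13b, chr11:61126605-61126754, plus strand: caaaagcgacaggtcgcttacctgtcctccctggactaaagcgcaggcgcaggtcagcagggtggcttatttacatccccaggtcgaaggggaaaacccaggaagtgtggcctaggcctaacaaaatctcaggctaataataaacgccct
Tnfrsf13c, chr15:82224381-82224530, minus strand: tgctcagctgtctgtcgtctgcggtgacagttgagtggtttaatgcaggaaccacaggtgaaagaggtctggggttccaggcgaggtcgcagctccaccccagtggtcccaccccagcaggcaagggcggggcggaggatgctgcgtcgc
Tnfrsf17, chr16:11313659-11313808, plus strand: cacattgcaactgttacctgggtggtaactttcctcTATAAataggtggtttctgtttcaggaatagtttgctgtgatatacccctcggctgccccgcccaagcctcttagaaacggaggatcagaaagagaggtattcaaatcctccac
The TATAA match of *Tnfrsf17*, in capitals, was the only match to the motifs named above in these 3 windows, which held 8, 12 and 6 CpG dinucleotides in the order shown.

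The ligand *Tnfsf13* (APRIL) was at 18.8, 10.6 and 12.4 CPM in TranspCtrl and at 23.2, 20.9 and 18.8 CPM in TranspExer. TranspCtrl replicate 1 lay just under the lowest TranspExer sample. The log2 fold change was 0.59 ± 0.20 (SE, adjusted p = 0.0568) and did not pass the test, whereas without TranspCtrl replicate 1 it was 0.86 (adjusted p = 6.29e-05), and DESeq2 and the edgeR fit with no filter also called it (adjusted p = 0.024 and 0.0159). *Tnfsf13b* (BAFF) was at 2.05 to 2.46 CPM in TranspCtrl and 2.09 to 3.09 CPM in TranspExer, with a log2 fold change of 0.13 (adjusted p = 0.66) and 0.07 without TranspCtrl replicate 1. *Tnfsf13* shares 983 of its 1637 exon bases with *Tnfsfm13*, a readthrough gene of *Tnfsf12* and *Tnfsf13* on the same strand, and *Tnfsf12* shares 731 of 1515 with it, so how their reads were split is uncertain. *Tnfsfm13* showed 0.54 (log2 fold change, adjusted p = 0.0149). With the counts of the 3 genes summed, an alternative chosen after seeing the data, the log2 fold change was 0.71 ± 0.10 (SE, adjusted p = 0.00134).

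B-lineage markers moved with these receptors. Summed B cell markers were at 245.3 to 275.2 CPM in TranspCtrl and 147.5 to 152.8 CPM in TranspExer, with 6 of 8 markers lower and 1, *Cd22*, higher. Summed plasma cell markers were at 2023 to 2316 and 698.3 to 756.7 CPM, with 6 of 7 lower, and no marker of either list was at 0 in all samples. The log2 ratio of *Tnfrsf13c* to the B cell marker *Cd79a* was −1.65 to −0.94 in TranspCtrl and −1.48 to −0.87 in TranspExer, a difference of 0.08 with overlap. That of *Tnfrsf13b* to *Cd79a* was higher by 0.47 in TranspExer, without overlap. That of *Tnfrsf17* to the plasma cell gene *Jchain* was lower by 1.44 on average, with TranspExer replicate 1 at −8.69, above the TranspCtrl samples at −9.03 to −8.70, and the other TranspExer samples at −11.6 and −10.6 on 1 and 3 counts. The part of B cells and plasma cells in the receptors' values was not tested further.

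**Figure D5:**
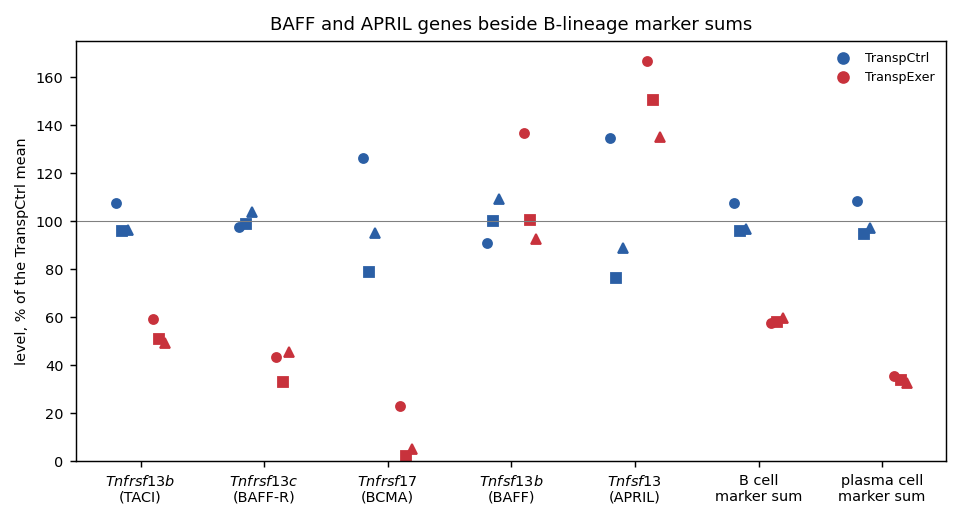
Level of BAFF and APRIL genes and of summed B cell and plasma cell markers in each sample, in percent of the TranspCtrl mean. The TranspExer samples (red) lie under all TranspCtrl samples (blue) for the 3 receptors and both marker sums, but not for the ligands.

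The receptor genes *Tnfrsf1a*, *Tnfrsf1b* and *Ltbr* of the TNF and lymphotoxin group rose, and lymphotoxin alpha and *Tnfsf15* fell. *Tnfrsf1a* (TNFR1, the widely expressed death domain receptor of TNF) was at 123.7, 158.0 and 154.8 CPM in TranspCtrl and at 193.3, 206.0 and 206.7 CPM in TranspExer, a change of 0.47 ± 0.11 (log2 scale, SE, adjusted p = 0.0127). *Tnfrsf1b* (TNFR2, enriched on leukocytes and endothelium) was at 229.6, 254.9 and 241.7 CPM and at 349.4, 359.4 and 365.4 CPM, a change of 0.56 ± 0.08 (log2 scale, SE, adjusted p = 0.00156). *Ltbr* (lymphotoxin beta receptor, carried by stromal and myeloid cells) was at 53.3, 67.2 and 67.8 CPM and at 94.4, 95.8 and 96.5 CPM, a change of 0.61 ± 0.10 (log2 scale, SE, adjusted p = 0.00388). For all 3 receptors, the groups did not overlap and TranspCtrl replicate 1 was the lowest sample. *Tnfrsf1a* and *Tnfrsf1b* were level with each other per length, at 93.7 and 93.8 RPKM in TranspExer. The call of *Tnfrsf1a* was lost without TranspExer replicate 2 or 3 (adjusted p = 0.0559 and 0.054). Summed endothelial markers, 8 of 8 of them higher, went from 188.4 to 237.1 CPM in TranspCtrl to 630.9 to 692.9 CPM in TranspExer, and their part in the receptors' values was not tested.

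*Tnf* itself did not pass the test. It was at 13.3, 5.96 and 8.04 CPM in TranspCtrl and at 6.85, 8.37 and 6.36 CPM in TranspExer, with TranspCtrl replicate 1 highest and TranspCtrl replicate 2 lowest of the 6. The log2 fold change was −0.34 with a 95% interval from −0.99 to 0.30 (adjusted p = 0.37), and 0.03 without TranspCtrl replicate 1 (adjusted p = 0.91). *Lta*, a lymphocyte cytokine encoded beside *Tnf* on chromosome 17, was at 1.66, 1.69 and 1.53 CPM in TranspCtrl and at 0.837, 0.465 and 0.596 CPM in TranspExer, a change of −1.35 ± 0.28 (log2 scale, SE, adjusted p = 0.00965). *Tnfsf15* (TL1A) was at 2.20, 1.33 and 1.77 CPM and at 0.732, 0.872 and 0.994 CPM, a change of −1.02 ± 0.28 (log2 scale, SE, adjusted p = 0.0277). Its call was lost without TranspCtrl replicate 1 or 3 and without each TranspExer sample (adjusted p = 0.0583 to 0.0971). The log2 fold change of *Tnfsf15* without TranspCtrl replicate 1 was −0.84 (adjusted p = 0.0583).

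The other members of this group did not pass the test. *Ltb* (lymphotoxin beta) showed −0.61 (log2 fold change, adjusted p = 0.0683) and was called without TranspExer replicate 1 (−0.90, adjusted p = 0.0235). *Tnfsf14* (LIGHT) had −0.65 (adjusted p = 0.0534) and −0.42 without TranspCtrl replicate 1 (adjusted p = 0.0703), and its samples did not overlap between the groups. *Tnfrsf14* (HVEM, a receptor of LIGHT) had −0.16 (adjusted p = 0.41) at 16.6 and 14.8 RPKM. *Tnfrsf25* (DR3, the receptor of TL1A) was counted 3 to 10 times in TranspCtrl and 9 to 13 times in TranspExer, with a log2 fold change of 0.89 (adjusted p = 0.17), and 1.29 without TranspCtrl replicate 1 (adjusted p = 0.084). T and NK cell markers summed to 86.5 to 90.2 CPM in TranspCtrl and 187.5 to 194.2 CPM in TranspExer, of which *Il7r*, a cytokine receptor that other lymphoid cells also carry, made up a mean of 107.2 CPM in TranspExer. *Cd3d* was lower (log2 fold change −1.83, adjusted p = 0.0208), *Cd4* and *Nkg7* were also higher, and the other 7 of the 11 markers did not pass the test.

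Among death ligands and receptors, *Tnfrsf10b* and *Tnfrsf26* rose and *Fas* fell. *Tnfrsf10b*, the death domain receptor of TRAIL, was at 12.1, 17.4 and 17.3 CPM in TranspCtrl and at 27.7, 24.6 and 24.4 CPM in TranspExer, a change of 0.71 ± 0.15 (log2 scale, SE, adjusted p = 0.00978). *Tnfrsf26*, a receptor gene in the same cluster on chromosome 7 as *Tnfrsf22* and *Tnfrsf23*, was at 17.3, 23.97 and 20.97 CPM and at 38.3, 37.1 and 37.95 CPM, a change of 0.86 ± 0.12 (log2 scale, SE, adjusted p = 0.00156). *Fas* was at 13.8, 8.57 and 9.53 CPM and at 7.38, 5.81 and 5.32 CPM, a change of −0.78 ± 0.21 (log2 scale, SE, adjusted p = 0.025). In none of these did the groups overlap. TranspCtrl replicate 1 was the lowest of the 6 samples for both receptors that rose and the highest for *Fas*, whose call was lost without TranspExer replicate 2 or 3 (adjusted p = 0.0895 and 0.101).

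The neighbouring decoy receptors of TRAIL did not pass the test. *Tnfrsf22* showed 0.36 (log2 fold change, adjusted p = 0.0782) and *Tnfrsf23* showed 0.15 (adjusted p = 0.41), which became 0.22 and 0.007 without TranspCtrl replicate 1 (adjusted p = 0.0674 and 0.95). The 2 genes are similar in sequence, and their summed counts, an alternative chosen after seeing the data, gave 0.21 (adjusted p = 0.23). *Tnfsf10* (TRAIL) was at 8.23 to 9.57 CPM in TranspCtrl and 8.53 to 10.1 CPM in TranspExer, with a log2 fold change of 0.08 and a 95% interval from −0.20 to 0.36 (0.15 without TranspCtrl replicate 1). *Fasl* was counted 3, 5 and 9 times in TranspCtrl but 0, 1 and 3 times in TranspExer and stayed under the filter.

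Costimulatory members of lymphocytes were low in level, and those called were all lower in TranspExer. Of 8 tested members, 0 were higher (beside 16.6% of all tested genes), also by DESeq2 and at an unadjusted p under 0.05 from edgeR, and 4 were lower (50.0%, beside 15.5%). *Tnfrsf18* (GITR, a receptor of activated and regulatory T cells) was at 4.49, 3.18 and 2.84 CPM in TranspCtrl and at 1.47, 1.57 and 1.24 CPM in TranspExer, a change of −1.30 ± 0.24 (log2 scale, SE, adjusted p = 0.00606). *Tnfrsf4* (OX40, its neighbour on chromosome 4) was at 2.34, 2.00 and 3.30 CPM and at 1.36, 1.395 and 1.04 CPM, a change of −1.01 ± 0.27 (log2 scale, SE, adjusted p = 0.0229). Its call was lost without TranspCtrl replicate 3 or any TranspExer sample (adjusted p = 0.0601 to 0.0876). *Tnfsf8* (CD30 ligand) was at 1.76, 1.80 and 1.95 CPM and at 0.837, 0.523 and 0.596 CPM, a change of −1.48 ± 0.27 (log2 scale, SE, adjusted p = 0.00502). *Tnfsf9* (4-1BB ligand, made by antigen-presenting cells) was at 4.69, 4.42 and 4.23 CPM and at 3.61, 2.21 and 2.48 CPM, a change of −0.68 ± 0.21 (log2 scale, SE, adjusted p = 0.0402). Its call was lost without TranspCtrl replicate 2 or 3 and without TranspExer replicate 2 or 3 (adjusted p = 0.0727 to 0.13). The groups overlapped for none of these 4.

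The receptors of the ligands that fell did not pass the test. *Tnfrsf8* (CD30) had a log2 fold change of 0.13 with an interval from −0.51 to 0.77 (0.06 without TranspCtrl replicate 1), and *Tnfrsf9* (4-1BB) one of −0.21 (adjusted p = 0.43). TranspCtrl replicate 1 was the lowest sample for *Tnfrsf9*, and without it the log2 fold change was −0.40 (adjusted p = 0.0133). *Cd40*, found on B cells, macrophages and dendritic cells, had −0.05 (95% interval −0.50 to 0.41) and 0.14 without TranspCtrl replicate 1 (adjusted p = 0.52), and *Cd27* had 0.17 (−0.58 to 0.93) and 0.45 without it (adjusted p = 0.40). The 4 members under the filter were ligands, namely *Cd40lg* with 1 to 5 counts over the 6 samples, *Cd70* with 1 to 7, *Tnfsf18* with 4 to 11 and *Tnfsf4* with 1 to 12, and they were not tested. *Cd70* was counted 2, 1 and 4 times in TranspCtrl and 5, 7 and 4 times in TranspExer, and its CPM did not overlap between the groups. *Tnfrsf18* overlaps the antisense gene *Gm16008* in 414 exon bases and *Tnfsf9* overlaps *Gm11110* in 192, and the counting by strand is not given in the sources used here.

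TWEAK rose and its receptor did not pass the test. *Tnfsf12* (TWEAK) was at 18.2, 27.4 and 28.8 CPM in TranspCtrl and at 49.4, 42.5 and 41.7 CPM in TranspExer, a change of 0.85 ± 0.17 (log2 scale, SE, adjusted p = 0.00769), and of 0.67 without TranspCtrl replicate 1 (adjusted p = 3.68e-05). It was the ligand with the most reads per length, at 17.3 RPKM in TranspCtrl and 31.1 RPKM in TranspExer. *Tnfrsf12a* (Fn14, an inducible receptor of stromal cells) was at 53.6, 24.9 and 27.8 CPM in TranspCtrl and at 29.3, 31.0 and 25.8 CPM in TranspExer. TranspCtrl replicate 1 alone lay far above the rest, so that the log2 fold change was −0.31 (adjusted p = 0.41) with it and 0.12 (adjusted p = 0.33) without it.

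Among the receptors of neural and ectodermal tissues, *Tnfrsf21* rose and *Tnfrsf19* fell. *Tnfrsf21* (DR6, a death domain receptor) was at 47.2, 65.8 and 73.7 CPM in TranspCtrl and at 115.2, 113.4 and 121.5 CPM in TranspExer, a change of 0.91 ± 0.15 (log2 scale, SE, adjusted p = 0.0035), and of 0.74 without TranspCtrl replicate 1 (adjusted p = 1.3e-06). *Tnfrsf19* (TROY, expressed in mesenchymal progenitors among other cells) was at 6.30, 7.75 and 5.72 CPM and at 3.19, 2.67 and 2.83 CPM, a change of −1.18 ± 0.17 (log2 scale, SE, adjusted p = 0.00205). The groups did not overlap for either gene. *Eda* (ectodysplasin) had −0.30 (adjusted p = 0.17) and *Edar*, its receptor, −0.82 on 3 to 18 counts (adjusted p = 0.21). *Ngfr*, which marks some marrow stromal cells, had 4 to 5 counts in TranspCtrl and 2 to 4 in TranspExer and stayed under the filter. Of 12 stromal markers, 3 were higher and 7 lower, among them *Cxcl12* at −0.46 and *Col1a2* at −0.61, and the part of this shift in *Tnfrsf19* was not tested.

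The antisense RNA *Tnfsf13os* was at 1.71, 1.13 and 1.81 CPM in TranspCtrl and at 3.19, 2.79 and 2.14 CPM in TranspExer, a change of 0.79 ± 0.26 (log2 scale, SE, adjusted p = 0.0485). It lies opposite to *Tnfsf13* and shares 221 of its 1109 exon bases with it, and although the labels name a stranded library kit, which keeps the strands apart, the counting by strand is not given in the sources used here, so whether reads of the 2 genes were separated is unknown. Its call was lost with library size only, upper-quartile factors or a filter of 1 CPM (adjusted p = 0.0521 to 0.0763) and without every sample except TranspCtrl replicate 1 (adjusted p = 0.0642 to 0.164).

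Of the pathway genes beside the superfamily, most target genes were lower, and the signalling genes were called at 22.2% to 36.4% per list, around the 32.2% of all tested genes called in either direction. Of 22 tested receptor adaptors, 5 were higher and 3 lower, with 0 at least 2-fold in either direction, also by DESeq2 and at an unadjusted p under 0.05 from edgeR. *Fadd*, the adaptor of death domains, showed 0.54 (log2 fold change, adjusted p = 0.00448), and *Birc2* and *Birc3*, the cIAP ubiquitin ligases, had −0.72 and −0.60 (adjusted p = 0.00433 and 0.00287). *Traf6*, the main adaptor of RANK, had −0.04 (adjusted p = 0.71). Of 18 NF-κB and MAP kinases, 2 were higher and 2 lower, with *Map2k3* at 0.76 (adjusted p = 0.0039). Of 12 NF-κB factors and inhibitors, 2 were higher and 1 lower, with *Rela* at 0.58 and *Nfkb2* at −0.24 (adjusted p = 0.0401 and 0.0378). Without TranspCtrl replicate 1 the adaptors held 7 higher and 4 lower, the kinases 4 and 2, and the factors and inhibitors 3 and 2, with *Rela* at 0.38 (adjusted p = 0.00032). Calls over all 15190 tested genes also grew in that refit, from 2523 higher and 2361 lower to 3382 and 3023. Of 7 genes that shed ligands or process receptors, 2 were higher and 0 lower, with the same counts by DESeq2 and at an unadjusted p under 0.05 from edgeR. They included *Adam10* at 0.40 (adjusted p = 0.0186), whereas *Adam17*, which releases TNF, had 0.11 (adjusted p = 0.33) and 0.07 without TranspCtrl replicate 1. The genes named here from these lists were picked after their values were seen.

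Of 24 tested target genes of TNF and NF-κB, 3 were higher (12.5%, beside 16.6% of all tested genes) and 14 lower (58.3%, beside 15.5%), 10 of the latter at least 2-fold (41.7%, beside 5.28%), with a median log2 fold change of −0.91 beside −0.02 over all tested genes. The gelatinase *Mmp9* had −2.42, the chemokines *Cxcl5* and *Ccl7* had −2.04 and −1.13 (adjusted p = 0.00129 and 0.00259), and *Socs3*, a feedback inhibitor of cytokine signalling, had −1.03 (adjusted p = 0.000131). The 3 that rose were *Vcam1* (0.65), *Fos* (0.69) and *Bcl2l1* (0.72). *Icam1*, *Sod2* and *Tnfaip2* did not pass the test, with log2 fold changes of −0.14, 0.02 and 0.17, and *Sod2* had −0.05 without TranspCtrl replicate 1. Without TranspCtrl replicate 1, the counts were 3 higher and 15 lower (beside 3382 and 3023 of all 15190 tested genes), with a median of −0.75. Many of these genes are expressed by monocytes, and *Lyz2*, a marker of the macrophage list, also fell (log2 fold change −1.14, adjusted p = 0.00873), while *Cd68* rose (0.78, adjusted p = 0.000377). Summed neutrophil markers were at 3083 to 4111 CPM in TranspCtrl and 5341 to 5540 CPM in TranspExer, but of the 8 markers 3 were higher and 2 lower (*Ly6g*, with adjusted p = 0.0566 without TranspCtrl replicate 1, and *Cxcr2*), with a median log2 fold change of 0.002. Summed dendritic cell markers were at 74.8 to 88.5 and 123 to 130.2 CPM, with 2 of 5 tested markers higher and 1 lower (*Ccr7*) and a median of −0.005. Summed eosinophil and mast cell markers were at 33.3 to 47.8 and 108.9 to 118.9 CPM, with 5 of 6 higher. The part of these cells in the target genes was not tested.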

How the data were processed

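RNA-Seq libraries were prepared from 6 samples of cultured BM cells, 3 per group, grouped by the sample labels. The authors deposited expected counts per gene (estimated counts, not normalized) and the gene length. The submitters' processing notes name the build mm10, the library kit was a stranded mRNA kit per the labels and a TruSeq kit per the study's methods, and the aligner, the counter and its strand setting are not given in the sources used here. Counts were rounded, filtered with filterByExpr and scaled by TMM, and tested with edgeR 4.0.16 in R 4.3.3 (quasi-likelihood test, group as the only term, Benjamini-Hochberg over 15190 genes), with thresholds of an adjusted p of 0.05 and a fold change of 2. The tests were checked on simulated data. Standard errors (SE) and 95% intervals were derived from each log2 fold change and its F statistic. RPKM were computed from TMM-scaled counts and the deposited length. Positions and exon overlaps came from GENCODE M21 (GRCm38), and promoters from RefSeq. Counts of 9 members were not all whole before rounding. The CPM given for 3 counts reflects depth only, whereas the 95% intervals of log2 fold changes include the spread between samples.

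The members, the gene lists and the tests were chosen with earlier results of these data known, so none is independent support for a direction. Named genes were all members, by role, and up to 4 genes of each pathway list with the smallest adjusted p past both thresholds. Genes named outside this rule, such as *Itgb3*, *Acp5*, *Calcr*, *Oscar*, *Nfatc1* and *Csf1r*, and the marker genes used for ratios were chosen after their values were seen. The ratio of *Tnfsf11* to *Tnfrsf11b* was computed with 0.5 added to each count. The alternatives were DESeq2 1.42.0, library size only, upper-quartile factors, no filter, a filter of 1 CPM in 3 samples, the replicate number as a block and each sample left out in turn.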

Additional observations from a re-analysis of the deposited data

How the results depend on the processing

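Of the 20 members called, 14 kept their call and direction in all 12 refits of the whole table. With a sample left out, 7 to 10 members were higher and 7 to 11 lower, of which 0 to 2 and 6 to 8 were at least 2-fold changed, and the lowest counts came without TranspExer replicate 2 or 3. *Tnf* ranged from −0.57 to 0.0283 on the log2 scale, with the reversal to 0.0283 without TranspCtrl replicate 1. The RANKL to OPG log2 difference ranged from −0.41 to −0.18, and was −0.26 with 2 added to each count. DESeq2 and the fit with no filter each called 23 members, including all 20, and the other scalings and the 1 CPM filter each called 20, of which 19 were shared. Library size only and upper-quartile factors moved the median log2 fold change of all genes by −0.09 and −0.08. All of these 5 settings also called *Tnfsf14* (adjusted p = 0.0234 to 0.0496), and DESeq2 and the fit with no filter called *Ltb* (adjusted p = 0.0444 and 0.0295).

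Samples with the same replicate number did not deviate together (correlations of 0.02, −0.0017 and 0.04), so the numbers were not taken to pair the samples. With the replicate number as a block, 9 members were higher and 12 lower, 6 of them at least 2-fold, and 18 of the 20 calls were shared. *Tnfsf13os* (adjusted p = 0.0707) and *Tnfsf15* (0.0512) were not called in that fit, whereas *Tnfsf13* (0.0198), *Ltb* (0.0237) and *Tnfsf14* (0.0222) were. The RANKL to OPG ratio was not fitted with the block. Depth limits the members of low level: 6 stayed under the filter, and *Tnfrsf17* rested on 1 and 3 counts in TranspExer replicates 2 and 3.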
